A study of Homo sapiens with 40 samples.

Results

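The genes described here are 41 histone lysine methyltransferases and demethylases, taken by gene symbol from 58336 genes in the DESeq2 results that make up the authors' deposited table. All 41 have values in at least 1 cell line and 37 have values in all 10 lines, against 19280 genes with a value in any line. Of the 41, 25 were grouped as methyltransferases and 16 as demethylases. RNA was sequenced from 40 libraries of 10 established human lines of non-small cell lung cancer, given either GSK3368712 (GSK712 in the labels) or its vehicle, dimethyl sulfoxide (DMSO). The compound is an inhibitor of the type I protein arginine methyltransferases. Each arm of a line had 2 libraries, and because the labels do not say that these came from separate cultures, the authors' p-values within a line may measure technical spread. The row labels place EBC1, LK2, NCIH226, NCIH520, SKMES1 and SW900 under lung squamous cell carcinoma (LUSC), and NCIH1563, NCIH1975, NCIH522 and PC9 under lung adenocarcinoma (LUAD). Those labels also carry the number 2000 and the sample titles carry D5, and neither is explained there. Every fold change below is a log2 value read as GSK3368712 over DMSO because the row labels name the compound and vehicle in that order, and the values give no check of that direction.

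Histone lysine methyltransferases add methyl groups to particular lysines of histone tails, almost all through a SET domain, with DOT1L as the exception among these genes. Demethylases remove them, either by flavin-dependent oxidation (KDM1A and KDM1B) or through a Jumonji C (JmjC) domain that uses iron and 2-oxoglutarate. Methylation of histone H3 at lysine 4 (H3K4) marks promoters and enhancers, H3K36 and H3K79 methylation mark transcribed gene bodies, and H3K9, H3K27 and H4K20 methylation are known from silent or compacted chromatin. The inhibited enzymes methylate arginines, some of them on the same histone tails, and are not members of this set.

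The authors' deposited table lists 12721 to 14565 genes in a line, whose mean normalized counts sum to 57647556 to 108557964. Library depth was not analysed here. The median standard error of the members' log2 fold changes was between 0.078 and 0.105 in the LUSC lines and between 0.208 and 0.354 in the LUAD lines, so a change of a given size was harder to detect in LUAD lines. Of the 4 epithelial markers, KRT8 and KRT18, keratins of simple epithelia, were listed in all 10 lines. EPCAM was not listed in NCIH226 or NCIH1563, and CDH1 was not listed in SKMES1, NCIH1563 or NCIH522. Of the 7 squamous markers, 1 to 3 were listed in each LUSC line and 0 to 4 in each LUAD line, with TP63 in 2 lines of each subtype and SOX2 in 4 LUSC lines and 1 LUAD line. Of the 6 adenocarcinoma markers, 2 to 6 were listed in each LUSC line and 2 to 5 in each LUAD line, with the lung lineage factor NKX2-1 in 3 LUSC lines and 1 LUAD line. A gene that is not listed had not met the authors' expression filter in that line. Of the 4 leukocyte markers, PTPRC and CD3E were listed in none of the 10 lines, CD14 in 2 and CD68 in 8. Of the 5 fibroblast markers, COL1A1 was listed in all 10 lines, LUM in 3, COL1A2 in 2, and PDGFRA and DCN in 1 each. In bulk libraries, a change in the share of cells that express a gene and a change in RNA per cell cannot be told apart.

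Expression levels were set side by side per length of the longest transcript and scaled so that the listed genes of each line sum to the same total, from the mean over all libraries of that line. KDM1A, the flavin-dependent H3K4 demethylase also called LSD1, had the highest median level over lines at 142, with a range from 53.5 in NCIH1563 to 456 in NCIH522. KDM2A (62.9), NSD2 (62.4), KMT5A (54.2) and EHMT2 (54.0) followed by median level, and their ranges over lines overlap each other and that of KDM1A. The lowest median levels were those of KDM8 (4.23), SETDB2 (3.32) and KDM7A (2.49), and the last 2 were listed in only 7 and 5 lines.

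**Figure D1:**
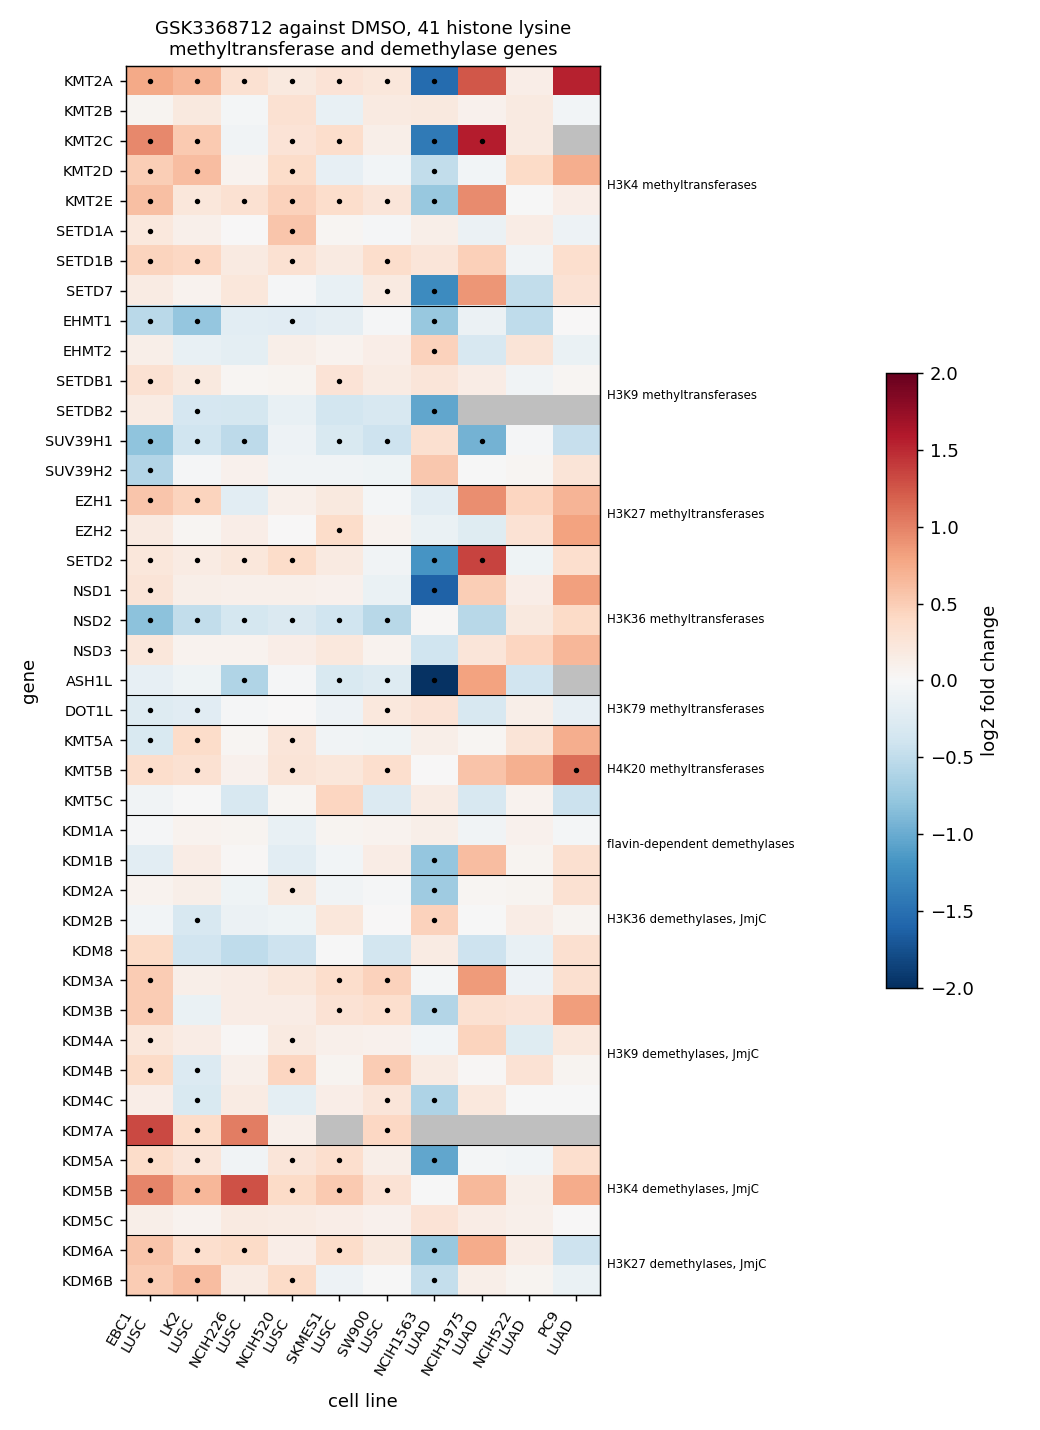
Log2 fold change (color scale, GSK3368712 over DMSO) of the 41 genes (vertical axis, by role) in the 10 cell lines (horizontal axis), from the authors' deposited table; gray cells are genes not listed in that line. NCIH1563 holds the lowest values, down to −1.98 for ASH1L, and black dots mark values past the authors' adjusted p.

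The first comparison asked which members changed in each line. By the authors' deposited adjusted p of at most 0.05, 127 of 400 listed member values passed (31.8%, against 27.5% of all listed values). In EBC1, 21 of 41 members were higher (51.2%, against 23% of all genes) and 6 lower (14.6%, against 23.4%). LK2 had 15 higher (36.6%, against 19.9%) and 8 lower (19.5%, against 19.5%). NCIH520 had 15 higher (36.6%, against 11.4%) and 2 lower (4.9%, against 12.3%), and SW900 had 12 higher (29.3%, against 18%) and 3 lower (7.3%, against 17.7%). In these 4 LUSC lines the members passed in the higher direction more often than the genes of the line as a whole.

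SKMES1 had 10 of 40 members higher (25%, against 15.8%) and 3 lower (7.5%, against 15.6%). NCIH226 stood closer to its background, with 6 higher (14.6%, against 15.5%) and 3 lower (7.3%, against 15.8%). NCIH1563 went the other way: 2 of 40 members, EHMT2 and KDM2B, were higher (5.0%, against 23.3%) and 17 were lower (42.5%, against 24.8%). The other LUAD lines had few calls. NCIH1975 had 2 higher (5.1%, against 4.33%) and 1 lower (2.6%, against 3.58%). At an unadjusted DESeq2 p under 0.05 it had 8 higher and 1 lower. PC9 had 1 higher (2.7%, against 2.56%) and none lower (against 1.92%), with 8 higher and 0 lower at an unadjusted DESeq2 p under 0.05. NCIH522 had no member past the authors' DESeq2 adjusted p in either direction (against 0.912% higher and 0.75% lower), with 1 higher and 1 lower at an unadjusted p under 0.05. The share of all genes at the unadjusted p was not counted in these lines, so the unadjusted counts have no background.

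**Figure D2:**
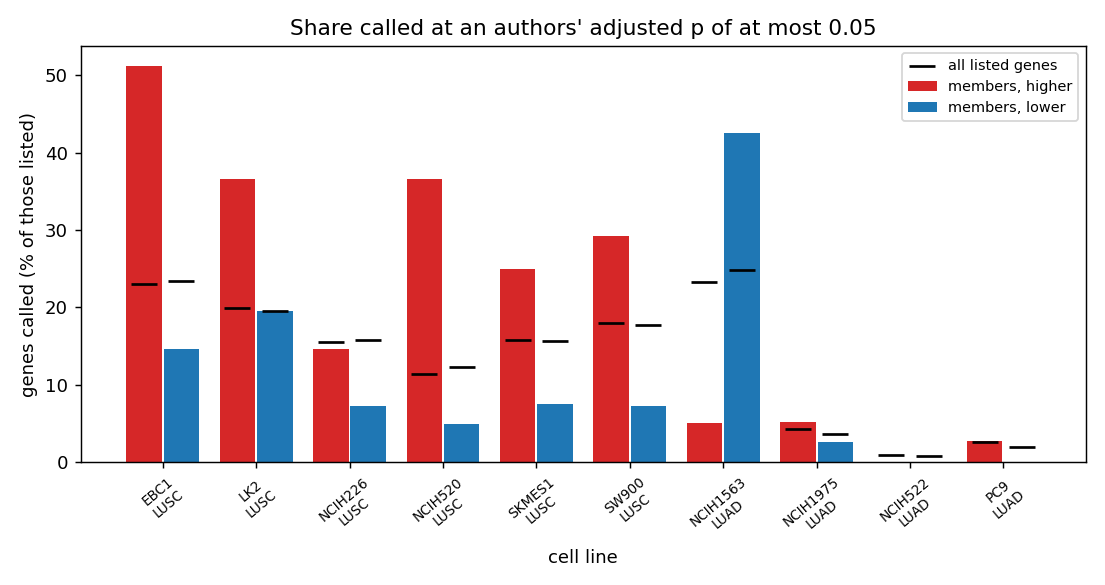
Share of listed genes past the authors' adjusted p (percent, by line), higher and lower, for the members and for all genes of the line. The members' share of higher calls lies above the background in EBC1, LK2, NCIH520, SKMES1 and SW900, and their share of lower calls lies above it in NCIH1563.

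The members differed in how they split over lines. KMT2B, KMT5C, KDM1A, KDM8 and KDM5C passed the authors' adjusted p in no line. In lines where they passed, 12 members were only higher and 7 only lower (EHMT1, SETDB2, SUV39H1, SUV39H2, NSD2, ASH1L and KDM1B). The other 17 passed in both directions, and 12 of the 16 of these that have values in all lines were lower in NCIH1563. Among the 37 members with values in all lines, passing in both directions held for 43.2%, against 21.9% of all such genes. Only 14 member values in the authors' deposited table also reached an absolute log2 fold change of 1, the size that goes with the authors' own mark (6.02% of all listed values did). The 8 lower ones were all in NCIH1563, where 18.3% of all genes reached it in either direction (KMT2A, KMT2C, SETD7, SETDB2, SETD2, NSD1, ASH1L and KDM5A), and the 6 higher ones were KMT2C and SETD2 in NCIH1975, KMT5B in PC9, KDM7A in EBC1 and NCIH226, and KDM5B in NCIH226.

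The second comparison asked which members moved together across the 10 lines, with 1 fold change per line. By limma with Benjamini-Hochberg adjustment over the 9339 genes with values in all lines, 4 of the 37 members tested rose (KDM5B, KMT5B, SETD1B and KDM3A; 9.5% of all genes did) and 2 fell (EHMT1 and SUV39H1; 12.1% of all genes did). Together that is 16.2% of the members, against 21.6% of all genes, so the members passed no more often than other genes. At an unadjusted p under 0.05, 11 of the 37 members passed, against 3230 of the 9339 genes. That share of all genes also stands beside the unadjusted counts of the lists below. The median of the members' mean log2 fold changes was 0.11, against 0.004 over all genes tested. Of the 37 means, 28 were above 0, and the share of all genes with a mean above 0 was not counted. The medians were alike for the 22 methyltransferases tested (0.12, with 2 higher and 2 lower) and the 15 demethylases tested (0.11, with 2 higher and 0 lower, and 4 at an unadjusted p under 0.05).

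**Figure D3:**
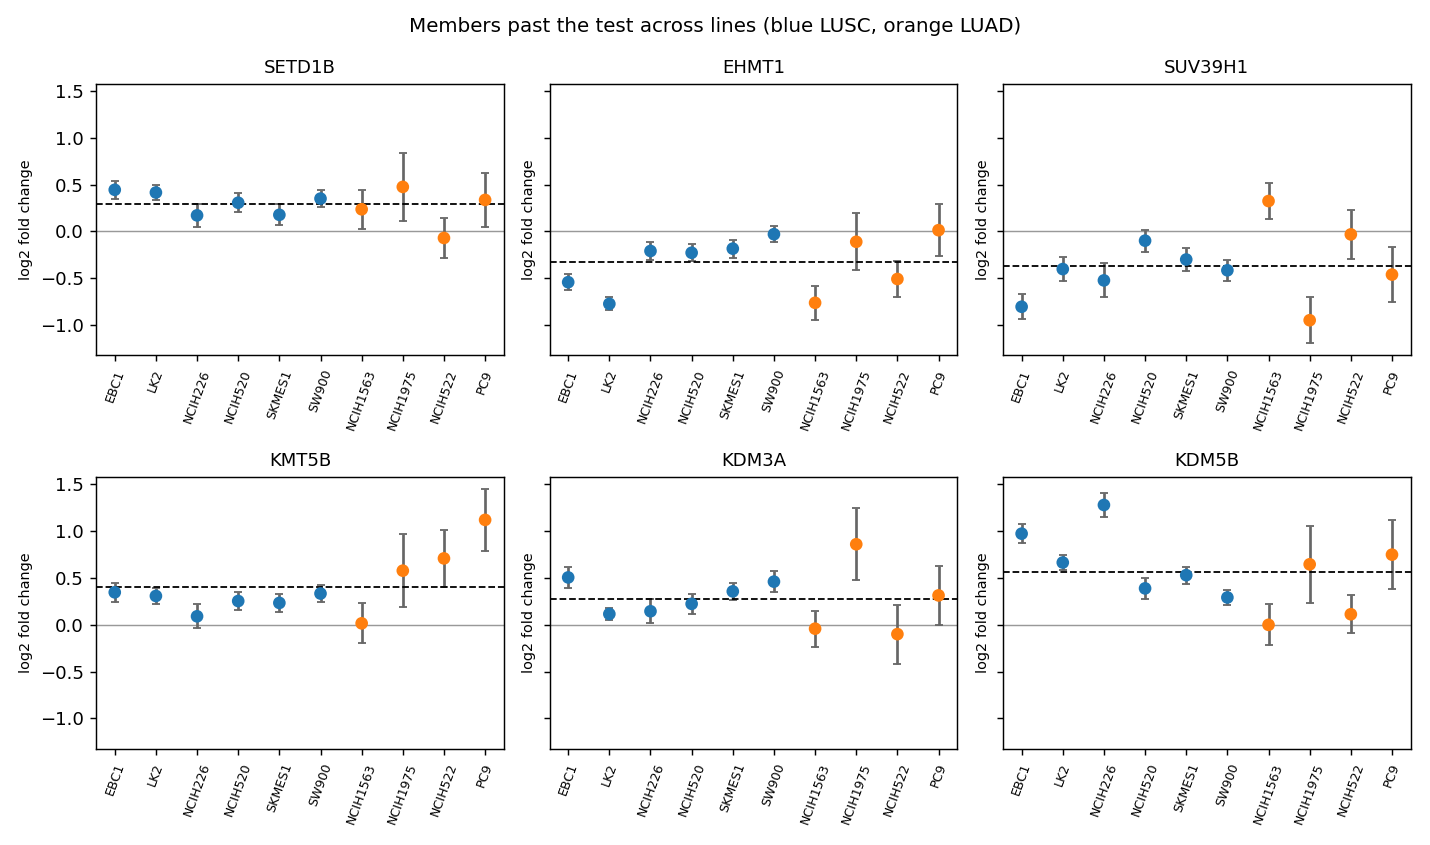
Log2 fold change in each line (points, blue LUSC and orange LUAD) with the authors' standard error (bars) and the mean of the 10 lines (dashed line) for the 6 members that passed limma's test across lines. KMT5B lies above 0 in all 10 lines and KDM5B, SETD1B and KDM3A in 8 or 9 of them, while EHMT1 and SUV39H1 lie below 0 in 9.

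Among the 8 genes grouped as H3K4 methyltransferases, 1 of the 7 tested rose and none fell (1 at an unadjusted p under 0.05), and the median of their means was 0.19. SETD1B, a catalytic subunit of the COMPASS complexes that deposit H3K4 methylation at promoters, stood in the authors' deposited table at 0.445 in EBC1, 0.42 in LK2, 0.17 in NCIH226, 0.31 in NCIH520, 0.18 in SKMES1 and 0.35 in SW900. In the LUAD lines the authors' deposited table gave SETD1B 0.24 in NCIH1563, 0.48 in NCIH1975, −0.069 in NCIH522 and 0.34 in PC9. All lines but NCIH522 were thus above 0, NCIH1563 included, and the subtypes overlapped. Its mean was 0.29 ± 0.16 (SD, n = 10 lines; limma adjusted p = 0.00814). Its close relative SETD1A had a mean of 0.09 ± 0.19 (n = 10) and did not pass (limma adjusted p = 0.383), and SETD1B was above SETD1A in 8 of 10 lines.

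KMT2A (MLL1), the large methyltransferase known from leukemia rearrangements, lies on chromosome 11 (chr11:118436464-118526832, plus strand, GRCh38) and varied most between lines of all 37 members by Cochran's Q (116.6). In the LUSC lines the authors' deposited table gave KMT2A 0.76 in EBC1, 0.67 in LK2, 0.31 in NCIH226, 0.19 in NCIH520, 0.28 in SKMES1 and 0.22 in SW900, each past the authors' adjusted p. The authors' deposited table placed KMT2A at −1.53 in NCIH1563, 1.25 in NCIH1975, 0.14 in NCIH522 and 1.55 in PC9, of which the first passed the authors' adjusted p. NCIH1563 was the lone line below 0. The highest values were in NCIH1975 and PC9, with standard errors of 0.613 and 0.975, while NCIH522 lay below every LUSC line. The mean over 10 lines was 0.38 ± 0.83 (limma adjusted p = 0.235), and without NCIH1563 it was 0.59 ± 0.51 (n = 9, limma adjusted p = 0.00872). Of KMT2A's exonic bases, 17.9% are shared with AP001267.5 on the same strand, so how reads were split between them is uncertain.

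KMT2C (MLL3), which methylates H3K4 at enhancers, was listed in 9 lines. The authors' deposited table gave KMT2C 0.96 in EBC1, 0.53 in LK2, −0.064 in NCIH226, 0.27 in NCIH520, 0.35 in SKMES1, 0.12 in SW900, −1.42 in NCIH1563, 1.57 in NCIH1975 and 0.18 in NCIH522. The 2 extremes were both LUAD lines, and both passed the authors' adjusted p. SETD7, which monomethylates H3K4 and non-histone proteins, stood in the authors' deposited table at 0.17 in EBC1, 0.072 in LK2, 0.23 in NCIH226, −0.023 in NCIH520, −0.16 in SKMES1, 0.19 in SW900, −1.26 in NCIH1563, 0.88 in NCIH1975, −0.50 in NCIH522 and 0.29 in PC9. Its mean over lines was −0.01 ± 0.56 (limma adjusted p = 0.969), with the lowest and the highest value again in NCIH1563 and NCIH1975. The remaining genes of this list, KMT2B, KMT2D (MLL4) and KMT2E (MLL5), had means of 0.10, 0.19 and 0.25, and none passed limma's test. Within lines, KMT2E was higher in all 6 LUSC lines (0.23 in LK2 to 0.60 in EBC1) and lower in NCIH1563 (−0.75) by the authors' deposited adjusted p. KMT2D was higher in EBC1, LK2 and NCIH520 (0.37 to 0.61) and lower in NCIH1563 (−0.49) in the authors' deposited table, and KMT2B passed in no line.

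Both members that fell were H3K9 methyltransferases: of 5 tested in this list, 2 fell and none rose (3 at an unadjusted p under 0.05), and the median of their means was 0.01. EHMT1 (GLP), which works with EHMT2 (G9a) in the H3K9 mono- and dimethylating complex, lies at chr9:137618963-137870016 on the plus strand. The authors' deposited table gave EHMT1 −0.54 in EBC1, −0.77 in LK2, −0.21 in NCIH226, −0.23 in NCIH520, −0.18 in SKMES1 and −0.029 in SW900. In LUAD the authors' deposited table gave EHMT1 −0.76 in NCIH1563, −0.11 in NCIH1975, −0.51 in NCIH522 and 0.014 in PC9. All lines but PC9 were below 0, with the lowest values in LK2 and NCIH1563 of different subtypes. The mean was −0.33 ± 0.29 (n = 10; limma adjusted p = 0.0188). EHMT2 did not follow: its mean was 0.03 ± 0.23 (limma adjusted p = 0.808), and EHMT1 was below EHMT2 in 8 of 10 lines.

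SUV39H1, an H3K9 trimethylating enzyme of pericentric heterochromatin, lies at chrX:48695554-48709012 on the plus strand. The authors' deposited table gave SUV39H1 −0.80 in EBC1, −0.40 in LK2, −0.52 in NCIH226, −0.098 in NCIH520, −0.30 in SKMES1 and −0.41 in SW900. In LUAD the authors' deposited table gave SUV39H1 0.325 in NCIH1563, −0.95 in NCIH1975, −0.031 in NCIH522 and −0.46 in PC9. NCIH1563 was the lone line above 0, and the lowest line was also LUAD. The mean was −0.37 ± 0.37 (n = 10; limma adjusted p = 0.0282), and the call was lost in 7 of 19 alternative analyses, among them leaving out EBC1 (adjusted p = 0.0671). Its paralog SUV39H2 had a mean of 0.01 ± 0.28 (limma adjusted p = 0.964), and SUV39H1 was below SUV39H2 in 10 of 10 lines, by a median of 0.28 on the log2 scale. AC231533.1 on the opposite strand shares 20.3% of SUV39H1's exonic bases, and whether the counting used strand is not stated.

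Promoter sequence was read for the 2 genes of this list that fell and for KMT5B, which was above 0 in every line, from RefSeq windows of GRCh38.p14 before each start site, here reduced to bases outside every annotated exon. Capitals mark a match to GGGGCGGGG, the GC box bound by SP1 family factors, searched on both strands.
EHMT1, chr9:137618907-137618962, plus strand: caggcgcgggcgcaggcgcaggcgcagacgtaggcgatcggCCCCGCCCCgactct
SUV39H1, chrX:48696484-48696594, plus strand: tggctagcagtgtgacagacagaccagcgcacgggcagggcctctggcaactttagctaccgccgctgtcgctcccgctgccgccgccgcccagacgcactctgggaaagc
KMT5B, chr11:68213829-68213898, minus strand: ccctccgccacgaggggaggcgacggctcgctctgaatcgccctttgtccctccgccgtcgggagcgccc
The 3 stretches each hold 10 CpG dinucleotides, and EHMT1's holds a GC box. The SUV39H1 stretch lies before the downstream one of its annotated starts. The window before its upstream start (chrX:48695304-48695553) holds 5 CpG dinucleotides in 250 bases and no GC box, and KMT5B has further starts whose windows hold a GC box. Windows of 250 bases were found for 38 of the 41 members (54 windows). A GC box was present in 16 of the 54 (29.6%), in 14 members, against 15.1% of all 35116 windows. CpG dinucleotides numbered 24.5 in the median member window, against 11 in the median of all windows. The box was found in windows of members that rose (KDM5B), fell (EHMT1) and did not pass (KMT2A).

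SETDB1, the H3K9 methyltransferase recruited by TRIM28 to repeat elements, had a mean of 0.14 ± 0.12 (limma adjusted p = 0.12). SETDB2 was listed in 7 lines, and the authors' deposited table gave 0.16 in EBC1, −0.33 in LK2, −0.35 in NCIH226, −0.15 in NCIH520, −0.375 in SKMES1, −0.325 in SW900 and −1.03 in NCIH1563. It was below SETDB1 in 7 of 7 lines, and 6 of these 7 were below 0. In a limma fit of genes with values in at least 7 lines its mean was −0.34 (adjusted p = 0.0885).

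EZH1 and EZH2 are the alternative catalytic subunits of Polycomb repressive complex 2 (PRC2), which methylates H3K27. Neither passed limma's test (1 of 2 at an unadjusted p under 0.05): EZH1 had a mean of 0.29 ± 0.38 (adjusted p = 0.0825) and EZH2 0.15 ± 0.29 (adjusted p = 0.259). In the authors' deposited table EZH1 was higher in EBC1 at 0.56 and in LK2 at 0.44, and EZH2 was higher in SKMES1 at 0.37. EZH1 was above EZH2 in 5 lines and below it in 5.

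Of the 5 H3K36 methyltransferases, 4 were tested and none passed (1 at an unadjusted p under 0.05), with a median of 0.10. SETD2, the enzyme for H3K36 trimethylation in transcribed genes, stood in the authors' deposited table at 0.22 in EBC1, 0.16 in LK2, 0.23 in NCIH226, 0.37 in NCIH520, 0.18 in SKMES1, −0.066 in SW900, −1.18 in NCIH1563, 1.35 in NCIH1975, −0.081 in NCIH522 and 0.33 in PC9. The authors' deposited table gave NSD1, a dimethylase mutated in Sotos syndrome, 0.25 in EBC1, 0.11 in LK2, 0.11 in NCIH226, 0.098 in NCIH520, 0.092 in SKMES1, −0.13 in SW900, −1.61 in NCIH1563, 0.49 in NCIH1975, 0.14 in NCIH522 and 0.81 in PC9. Both genes were lowest in NCIH1563 and highest in another LUAD line, with the LUSC lines between these extremes. By the authors' deposited adjusted p, SETD2 was higher in EBC1, LK2, NCIH226, NCIH520 and NCIH1975, NSD1 was higher in EBC1, and both were lower in NCIH1563. ASH1L, listed in 9 lines, stood in the authors' deposited table at −0.17 in EBC1, −0.091 in LK2, −0.605 in NCIH226, −0.031 in NCIH520, −0.30 in SKMES1, −0.26 in SW900, −1.98 in NCIH1563, 0.81 in NCIH1975 and −0.39 in NCIH522. Unlike SETD2 and NSD1 it was below 0 in all 6 LUSC lines. NSD2, the dimethylase overexpressed in some multiple myelomas, was lower in all 6 LUSC lines by the authors' deposited adjusted p (−0.83 in EBC1 to −0.29 in NCIH520). Across lines its mean was −0.29 ± 0.38 (limma adjusted p = 0.0795), with LUAD lines from −0.55 in NCIH1975 to 0.38 in PC9 in the authors' deposited table. NSD3 had a mean of 0.17 ± 0.27 (limma adjusted p = 0.175).

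DOT1L, the H3K79 methyltransferase, had a mean of −0.05 ± 0.20 (limma adjusted p = 0.676). Of the 3 H4K20 methyltransferases, 1 rose and none fell (1 at an unadjusted p under 0.05). KMT5B (SUV420H1), which makes H4K20 di- and trimethylation from the monomethyl mark, stood in the authors' deposited table at 0.35 in EBC1, 0.31 in LK2, 0.09 in NCIH226, 0.25 in NCIH520, 0.23 in SKMES1 and 0.33 in SW900. In LUAD the authors' deposited table gave KMT5B 0.015 in NCIH1563, 0.58 in NCIH1975, 0.71 in NCIH522 and 1.12 in PC9. All 10 lines were above 0 (4.39% of all genes tested were), and 3 of the 4 LUAD lines were above every LUSC line. The mean was 0.40 ± 0.33 (n = 10; limma adjusted p = 0.0113), and without NCIH1975, NCIH522 and PC9, the lines with the largest standard errors, it was 0.23 (adjusted p = 0.0534). KMT5A, which adds the first methyl group, had a mean of 0.13 ± 0.28, and KMT5C, the paralog of KMT5B, −0.07 ± 0.27 (limma adjusted p = 0.31 and 0.59).

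The demethylase KDM5B had the largest mean rise of the 37 members tested, and it was the 1 of 3 H3K4 demethylases that passed limma's test across lines (2 at an unadjusted p under 0.05). KDM5B (JARID1B) removes H3K4 di- and trimethylation. The authors' deposited table gave KDM5B 0.97 in EBC1, 0.66 in LK2, 1.28 in NCIH226, 0.39 in NCIH520, 0.53 in SKMES1 and 0.29 in SW900, each past the authors' adjusted p. In LUAD the authors' deposited table gave KDM5B −0.001 in NCIH1563, 0.645 in NCIH1975, 0.11 in NCIH522 and 0.75 in PC9, none past the authors' adjusted p. The values of the 2 subtypes overlap. The mean was 0.56 ± 0.39 (n = 10; limma adjusted p = 0.00364), and it lay between 0.48 and 0.63 when each line was left out in turn. KDM5A stood in the authors' deposited table at 0.37 in EBC1, 0.25 in LK2, −0.074 in NCIH226, 0.24 in NCIH520, 0.34 in SKMES1, 0.11 in SW900, −1.05 in NCIH1563, −0.043 in NCIH1975, −0.061 in NCIH522 and 0.33 in PC9. Its mean was 0.04 ± 0.42 (limma adjusted p = 0.845). KDM5C, the X-linked relative, was above 0 in 10 of 10 lines, but its mean was 0.13 ± 0.07 and it did not pass limma's test (adjusted p = 0.108).

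Among the H3K9 demethylases, 1 of 5 tested rose and none fell (2 at an unadjusted p under 0.05). KDM3A (JMJD1A), an oxygen-sensitive H3K9 mono- and didemethylase, stood in the authors' deposited table at 0.505 in EBC1, 0.115 in LK2, 0.14 in NCIH226, 0.22 in NCIH520, 0.36 in SKMES1, 0.46 in SW900, −0.042 in NCIH1563, 0.86 in NCIH1975, −0.10 in NCIH522 and 0.31 in PC9. The mean was 0.28 ± 0.28 (n = 10; limma adjusted p = 0.0362), and 8 of 10 lines were above 0. Its call was lost in 9 of 19 alternatives, among them leaving out SW900 (adjusted p = 0.082). KDM7A was listed in 5 LUSC lines, and the authors' deposited table gave 1.32 in EBC1, 0.36 in LK2, 1.02 in NCIH226, 0.098 in NCIH520 and 0.42 in SW900, all above 0. Its level, on the length-scaled scale given above, was 25.7 in NCIH520 and 18.2 in LK2 and between 2.28 and 2.49 in EBC1, NCIH226 and SW900, so its largest fold changes, in EBC1 and NCIH226, were at low levels. KDM3B, KDM4A, KDM4B and KDM4C had means between −0.02 and 0.21 and did not pass. Of KDM4A's exonic bases, 40.2% are shared on the same strand with AL451062.3, so how reads were split between them is uncertain.

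KDM6A (UTX) and KDM6B (JMJD3), the H3K27 demethylases, had means of 0.17 ± 0.45 and 0.11 ± 0.32 and did not pass limma's test (adjusted p = 0.369 and 0.459). KDM1A varied least in fold change next to KDM5C, from −0.155 in NCIH520 to 0.116 in NCIH1563, with a mean of 0.01 ± 0.08. KDM1B, KDM2A, KDM2B and KDM8 had means between −0.14 and 0.03 and did not pass, and none of the flavin-dependent, H3K36 or H3K27 demethylases had an unadjusted p under 0.05.

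NCIH1563 stood apart from the other 9 lines in many members. Of its 17 lower members, 8 are given above with values under −1, and the authors' deposited table placed the other 9 (KMT2D, KMT2E, EHMT1, KDM1B, KDM2A, KDM3B, KDM4C, KDM6A and KDM6B) between −0.775 and −0.474. Without it, limma had 9 of 37 members higher (12.9% of all genes were) and 3 lower (15.8% of all genes were). Of all genes, 28.7% passed in either direction. At an unadjusted p under 0.05, 19 members passed, and the share of all genes that did so in this fit was not counted. KMT2A, KMT2E (0.36, adjusted p = 0.00946), NSD3 (0.24, adjusted p = 0.0242), EZH1 (0.34, adjusted p = 0.0301) and KDM3B (0.30, adjusted p = 0.0188) were added to the higher ones, and NSD2 (−0.32, adjusted p = 0.0472) to the lower ones. Above 0 in all 9 other lines were 5 members (6.72% of all genes were), of which KMT2A (−1.53), NSD3 (−0.40) and KDM5B (−0.001, with a standard error of 0.218) had values below 0 in NCIH1563 in the authors' deposited table (2.33% of all genes did). The value of KDM5B there is within its standard error of 0.

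Transcript length moved with the fold changes in NCIH1563. The 8 members with a longest transcript of at least 10000 bases (KMT2A, KMT2C, KMT2D, NSD1, NSD3, ASH1L, KDM5A and KDM5B) had a median of −1.23 there, against −0.53 for all 482 listed genes of that length and 0.02 for the 32 shorter members. In PC9, 6 such members had a median of 0.74 (all long genes 0.30), in NCIH1975 8 had 0.57 (all 0.24) and in EBC1 8 had 0.43 (all 0.15). Over all genes of a line, Spearman's rho of log2 fold change with length was −0.24 in NCIH1563, 0.23 in PC9 and 0.16 in NCIH1975. It was between −0.06 and 0.06 in the other 7 lines, and genes are not independent replicates. Among the members alone, rho was −0.53 in NCIH1563, 0.42 in NCIH1975, 0.40 in PC9, 0.39 in EBC1, and 0.37 in LK2 and NCIH520. In the remaining lines it was between 0.01 and 0.23. After a correction for transcript length and GC content that was chosen after seeing the data, NCIH1563 stood at −0.94 for KMT2A, −1.06 for NSD1, −0.52 for SETD2, −0.66 for SETD7 and −0.34 for KDM5A, and at 0.66 for KDM5B. NSD3 changed sign under it in that line, from −0.40 in the authors' deposited table to 0.31. The part that length, RNA quality or library preparation takes in these values was not tested beyond that correction.

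**Figure D4:**
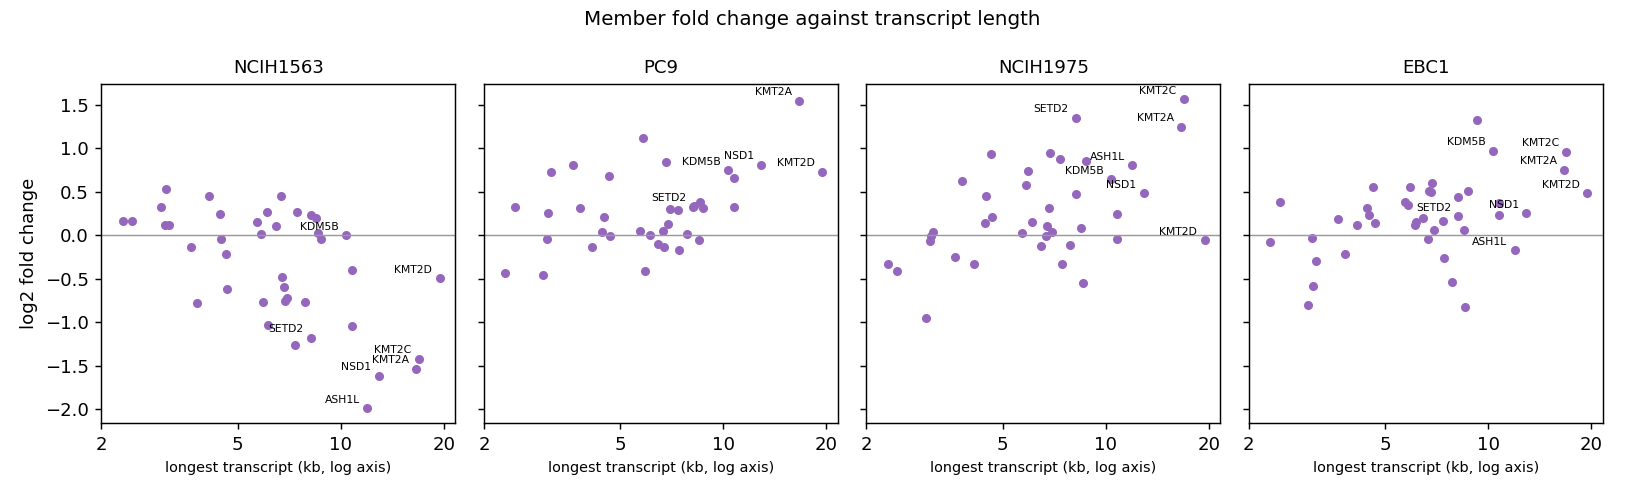
Log2 fold change of the members against the length of their longest transcript (kb, log axis) in NCIH1563, PC9, NCIH1975 and EBC1. In NCIH1563 the 8 members of at least 10000 bases have a median of −1.23, and in PC9 and NCIH1975 the medians of the long members are 0.74 and 0.57.

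The fold changes differed between lines beyond the authors' standard errors for 25 of 37 members by Cochran's Q with Benjamini-Hochberg adjustment (67.6%, against 65.9% of all genes), so the members vary about as often as other genes do. KMT2A (Q = 116.6) and KMT2D (94.1) had the largest values. Between LUAD and LUSC, limma called 0 of 37 members after adjustment (0.0107% of all genes) and 1 at an unadjusted p under 0.05. That was NSD2, with a mean of −0.49 in LUSC and 0.01 in LUAD, a difference of 0.50 (limma adjusted p = 0.805).

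The line profiles of the members were compared as a description over 10 lines whose fold changes share their libraries. NSD1 was most like KMT2A (Pearson's r = 0.96, Spearman's rho = 0.78), at r = 0.92 without NCIH1563 and 0.83 without NCIH1563 and PC9. KDM2A (r = 0.88) fell to 0.13 without those 2 lines, so its likeness rests on them, while SETD7 (r = 0.88) kept 0.81. SUV39H1 (r = −0.81), EHMT2 (−0.81) and DOT1L (−0.80) ran opposite to KMT2A, at −0.87, −0.70 and −0.86 without those lines. All values given here without NCIH1563 and PC9 keep NCIH1975, where KMT2A was highest of the lines left (1.25, with a standard error of 0.613). They therefore do not show a relation to KMT2A apart from that line. KMT2A and NSD1 have long transcripts. Length, as given above, moved with the fold changes of all genes in 3 lines, and with those of the members also in EBC1, LK2 and NCIH520.

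The same profiles were set beside 10 proliferation genes, of which 1 fell (PCNA, the replication clamp, −0.29 ± 0.29, limma adjusted p = 0.0353) and none rose, with 3 at an unadjusted p under 0.05. The mean log2 fold change of the 10 genes ran from −0.57 in NCIH1975 and −0.56 in EBC1 to 0.23 in PC9. The genes did not all move alike within a line. In NCIH1563, where the mean was −0.06, the authors' deposited table gave MKI67 −1.689 and CDK1 0.69. NSD2 followed the mean of the proliferation genes over 10 lines (r = 0.85, rho = 0.89), at r = 0.86 without EBC1 and NCIH1975, the 2 lines farthest from the median. KMT5A also did (r = 0.80, rho = 0.76, and 0.85 without them). All values given here without those 2 lines keep PC9, at the high end, so they do not show a relation apart from that line. SUV39H1 had r = 0.65 and rho = 0.72, but r = 0.14 without those 2 lines. PC9, which stays in, has the highest mean of the proliferation genes (0.23) and SUV39H1 at −0.46. The 0.14 therefore does not tell which lines the relation of SUV39H1 rests on. EZH2 had r = 0.61 and rho = 0.35. KDM6A ran opposite to the proliferation genes (r = −0.76, rho = −0.90, and r = −0.63 without those 2 lines). So did KMT2E (r = −0.62, rho = −0.79), KDM4C (r = −0.45, rho = −0.71) and KDM3A (r = −0.63, rho = −0.70), which were not examined without those 2 lines. The part of cell division in these members' fold changes was not tested.

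**Figure D5:**
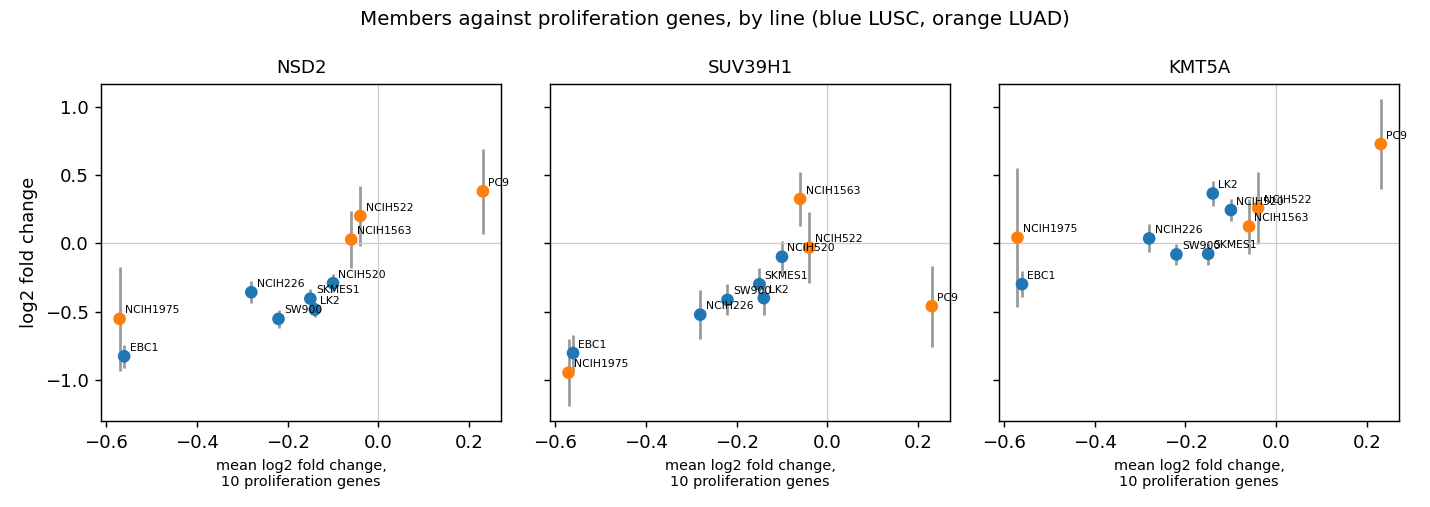
Log2 fold change of NSD2, SUV39H1 and KMT5A (vertical axes, bars are the authors' standard errors) against the mean log2 fold change of 10 proliferation genes (horizontal axes), 1 point per line, blue LUSC and orange LUAD. NSD2 rises with the proliferation genes over the 10 lines (r = 0.85), with EBC1 and NCIH1975 at the low end and PC9 at the high end.

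Other genes of the same pathways were counted by lists. Of 11 other lysine methyltransferases tested, 3 rose and 2 fell (5 at an unadjusted p under 0.05, median −0.01). SETMAR, a SET domain fused to a transposase, was the most uniform of these, with a mean of −0.61 ± 0.14 and below 0 in 10 of 10 lines (5.46% of all genes were; limma adjusted p = 5.12e-05). SETD4 (−0.24) also fell, and SMYD3 (0.38), PRDM15 (0.35) and SMYD5 (0.24) rose. Of 12 tested subunits of the KMT2 and SETD1 complexes, none rose and 2 fell (3 at an unadjusted p under 0.05, median −0.03): HCFC1, the host cell factor that joins SETD1 complexes, at −0.27 ± 0.14 and below 0 in 10 of 10 lines (limma adjusted p = 0.00824), and PAGR1, of the KMT2C and KMT2D complexes, at −0.31 ± 0.22 (limma adjusted p = 0.0105).

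Of 9 PRC2 subunits, 1 fell and none rose (4 at an unadjusted p under 0.05, median −0.10). That was RBBP4, a histone chaperone found in several complexes, at −0.31 ± 0.24 (limma adjusted p = 0.0146). Of 11 H3K9 methylation readers and partners, 2 rose and none fell (5 at an unadjusted p under 0.05, median −0.07). ATF7IP, which stabilizes SETDB1, had a mean of 0.63 ± 0.50 and was above 0 in 9 of 10 lines (limma adjusted p = 0.00626), and WIZ, a partner of EHMT1 and EHMT2, 0.24 ± 0.21 in 10 of 10 lines (limma adjusted p = 0.0368). Of 5 DOT1L partners, MLLT6 rose in the test across lines with a mean of 0.37 ± 0.14 and was above 0 in 10 of 10 lines (limma adjusted p = 0.00115), with 2 of 5 at an unadjusted p under 0.05 and a median of 0.07. None of 9 KDM1A complex subunits passed limma's test (2 at an unadjusted p under 0.05, median 0.04), and none of 6 other JmjC demethylases (0 at an unadjusted p under 0.05, median −0.01).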

How the data were processed

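The submitters' processing notes name FastQC, Salmon 0.12.0, DESeq2 (version not stated) and the build GRCh38. Per the labels, genes that did not exceed an FPKM of 1 were dropped from a comparison. All values come from the authors' deposited table, with 1 comparison per line. It holds fold changes and their standard errors on a log2 scale, as deposited. Its adjusted p, also the authors', is a p-value adjusted within a line. The authors' test statistic is a score within 0.166 of the fold change over its standard error. The deposited mean normalized count is a signal averaged over the libraries of a line. Values per library were not analysed here.

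In R 4.3.3, limma 3.58.1 tested the mean fold change over the 10 lines against 0, and LUAD against LUSC, for 9339 genes with values in all lines. Cochran's Q used the authors' standard errors. The threshold was an adjusted p of 0.05 (Benjamini-Hochberg) throughout, and means ± SD are over lines. The tests were tested on simulated data. Values in every line are given for members past the test across lines, for those past the authors' adjusted p with a fold change of 1 or more (log2, either sign) in any line, and for the member with the largest Q. Partner genes are named where they passed the test across lines, up to 4 a list by smallest p; PRDM15 is named beyond that, chosen after its values were seen. The members and lists were chosen with earlier results of these data known. Alternatives covered the genes tested, centring, scaling, variance moderation, weighting, thresholds and lines left out. Positions, lengths and overlaps came from GENCODE 29, which matched 19245 of 19280 gene IDs, and promoters from RefSeq (GRCh38.p14). No windows were used for DOT1L, NSD3 and SETD1B. Figures were drawn in Python 3.11.15.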

Additional observations from a re-analysis of the deposited data

Results flagged for a closer look

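In 6 members, 1 line lay farther from the other lines than Dixon's test at the 95% level allows, which chance gives in about 1 in 20 groups. How many of all genes hold such a line was not counted, so the number of members has no background. In 5 of them the line was NCIH1563, in the authors' deposited table at −1.532 for KMT2A, −1.613 for NSD1, −1.983 for ASH1L, −0.717 for KDM2A and −1.046 for KDM5A. In SETD1A it was NCIH520, at 0.553 in the authors' deposited table. For 16 members the fold changes differed between lines by Cochran's Q, with lines past the authors' adjusted p in both directions. Q was 116.6 for KMT2A, 94.1 for KMT2D, 75.8 for NSD1, 68 for SETD2, 62.6 for SETD7, 59.6 for KDM3B, 45.8 for KDM6B and 42.8 for KMT2E. It was 41.9 for KDM5A, 40.7 for KMT5A, 38.9 for KDM6A, 38.2 for KDM4B, 28.3 for KDM2A, 26.9 for KDM2B, and 24.5 for both DOT1L and KDM4C.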

How the results depend on the processing

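No paired analysis was possible because the table holds no values per library. Counts of members past limma's test across lines were 4 higher and 2 lower. The higher count was 10 in a random-effects meta-analysis, 2 without NCIH1975, NCIH522 and PC9, and 3 to 9 when each line was left out in turn, with 9 without NCIH1563. The lower count was 1 by an ordinary one-sample test and 1 to 3 when each line was left out. Without NCIH1563, 12.9% of all genes were higher and 15.8% lower. For the other alternatives just given the share of all genes was not counted, so their member counts have no background. By the authors' mark, which adds a fold change of 1 or more (log2, either sign), the 84 higher and 43 lower member values became 6 and 8. Members past Cochran's Q were 25 (65.9% of all genes passed), and 19 to 26 when each line was left out, with the share of all genes not counted. No member passed the subtype test in any fit that left out 1 line. KDM5B, SETD1B and EHMT1 kept their call in all 19 alternatives, and KMT5B lost it in 1. The adjusted p of SUV39H1 ran from 0.00186 to 0.0981 and that of KDM3A from 0.000203 to 0.082. The means of SETD7, SETD2 and NSD1 changed sign, none of them past the test. SETD7 (−0.01) was 0.01 in the meta-analysis and when scaled by the SD of each line, and ran from −0.11 to 0.13 when each line was left out. SETD2 (0.15) was −0.01 without NCIH1975, NCIH522 and PC9. NSD1 (0.04) was −0.01 in the meta-analysis, −0.16 without those 3 lines, −0.01 with the correction for transcript length and GC content, and ran from −0.05 to 0.22 when each line was left out. The cause was not tested. The correction, chosen after seeing the data, gave 6 higher and 2 lower members, with the share of all genes not counted. The standard errors of the LUAD lines limit what can be detected there, and 4 members lack values in some lines.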
